A study of Mus musculus with 3 samples.

Results

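The genes described are 10 members of the Notch pathway in the adult mouse subventricular zone (SVZ), the neurogenic layer along the lateral ventricle. They were taken by symbol from the 27998 genes of the count matrices, and all 10 were found. The ligands are Dll1, Dll3 and Jag1, the receptors are Notch1 and Notch2, and the targets are Hes1, Hes5 and Hey1. Lfng modifies the receptors and Hes6 acts on Hes1. In background terms, a ligand on one cell binds a Notch receptor on a neighbour, the receptor is cut within the membrane, and its inner part enters the nucleus and joins the DNA-binding protein RBPJ to switch on Hes and Hey genes. Hes proteins are repressors of proneural genes, and in the SVZ Notch activity is known for keeping stem cells quiescent while their committed progeny carry the ligands. The question put to the data is which cell types hold the sending genes and which hold the receiving ones.

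Cells came from 5 adult mice that carried aSMACreERt2::Rosa26-tdTomato together with B6;129S-Sox2tm2Hoch/J, with C57/Bl6(3/4) and 129S1SvlmJ(1/4) background. A Cre that needs tamoxifen is driven by the smooth muscle actin promoter (Acta2) and switches on tdTomato, and GFP is expressed from the Sox2 locus. All sorted cells were GFP-positive: 1200 that were also tdTomato-positive went into 1 library, and 1200 and 6000 that were tdTomato-negative went into libraries called tdTomato-negative 1 and 2 here. Every group therefore carried the same alleles and passed the same GFP gate. A tdTomato signal reports that the Acta2 promoter was active when Cre acted, not a cell type, and neither reporter has a row in the matrices.

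After filtering, 252 tdTomato-positive cells and 256 and 1121 tdTomato-negative cells were kept, with a median of 2535, 2640 and 2401 UMIs (unique molecular identifiers, each marking 1 captured transcript) per cell. The median mitochondrial share was 8.27% in the tdTomato-positive library, against 3.22% and 3.38% in tdTomato-negative libraries 1 and 2. The tdTomato-positive library shared 0 barcodes with tdTomato-negative library 1 and 1 with library 2, and the negative libraries shared 2 with each other. Cells were grouped into classes without using any Notch pathway gene and named "-like" from marker lists. The classes used most here were astrocyte-like (278 cells), ependymal-like (235), cycling progenitor-like (241), neuroblast-like (435) and oligodendrocyte precursor-like (68). The tdTomato-positive library was 70.2% ependymal-like and held 17 astrocyte-like cells, 1 neuroblast-like cell and no cycling or oligodendrocyte precursor-like cell, so the last 3 classes rest on the tdTomato-negative libraries. The 18 astrocyte markers of the fixed list together reached 36114, 35384 and 34504 UMIs per 1000000 (CPM) in the astrocyte-like class, given for the tdTomato-positive library first and then for tdTomato-negative libraries 1 and 2, with none at 0. The 12 ependymal markers summed to 1651 CPM in those astrocyte-like cells of the tdTomato-positive library, against 387 and 264 CPM in the negative libraries, and their part in the astrocyte-like values of that library was not tested. The labels do not say which animals went into which library, so the spread behind the p-values may be technical. Between gates it is the spread between libraries of the same gate. Between classes it is what remains after the class and library terms, taken over all classes of the fit.

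Promoter windows are shown for a pair of genes that were high in astrocyte-like cells (Hes5 and Lfng) and for the Delta-type ligands that were high in cycling cells (Dll1 and Dll3). Each window runs from 250 bases before to 50 bases after an annotated start of the gene. It is written 5′ to 3′ on the gene's own strand, from RefSeq on GRCm38.p6. The Hes5 gene begins at 154960626, ahead of its window at 154960673, so the Hes5 window is that of a start further inside the gene. Capitals mark GTGGGAA, the core of the RBPJ motif (TTCCCAC on the other strand), or CAGCTG, an E-box of the kind that proneural factors bind, which reads the same on both strands. Positions are counted from the start used for each window, with +1 as its first base.
Hes5 chr4:154960673-154960972 (+): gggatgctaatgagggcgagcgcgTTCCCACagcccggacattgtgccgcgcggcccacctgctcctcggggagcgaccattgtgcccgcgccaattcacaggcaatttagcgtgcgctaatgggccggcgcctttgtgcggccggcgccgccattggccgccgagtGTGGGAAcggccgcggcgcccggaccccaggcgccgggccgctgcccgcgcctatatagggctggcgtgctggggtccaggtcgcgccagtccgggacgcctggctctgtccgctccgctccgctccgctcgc
Lfng chr5:140607091-140607390 (+): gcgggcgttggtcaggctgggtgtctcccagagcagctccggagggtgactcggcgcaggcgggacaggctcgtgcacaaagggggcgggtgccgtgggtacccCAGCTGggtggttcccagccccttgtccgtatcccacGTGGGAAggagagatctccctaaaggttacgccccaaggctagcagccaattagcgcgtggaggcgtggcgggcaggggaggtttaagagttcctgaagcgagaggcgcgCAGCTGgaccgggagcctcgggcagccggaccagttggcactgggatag
Dll1 chr17:15376883-15377182 (-): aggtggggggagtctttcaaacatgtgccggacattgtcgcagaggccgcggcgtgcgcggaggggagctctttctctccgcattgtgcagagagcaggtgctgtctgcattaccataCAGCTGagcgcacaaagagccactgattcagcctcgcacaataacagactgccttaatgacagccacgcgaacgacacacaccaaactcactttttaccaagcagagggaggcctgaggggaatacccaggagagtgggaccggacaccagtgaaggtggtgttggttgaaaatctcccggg
Dll3 chr7:28301736-28302035 (-): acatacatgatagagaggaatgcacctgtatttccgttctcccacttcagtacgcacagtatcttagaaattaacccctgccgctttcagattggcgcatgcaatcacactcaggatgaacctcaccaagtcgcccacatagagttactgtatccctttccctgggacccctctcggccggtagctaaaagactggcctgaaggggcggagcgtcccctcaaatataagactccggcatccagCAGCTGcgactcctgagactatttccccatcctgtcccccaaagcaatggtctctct

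The Hes5 window held 2 RBPJ cores, TTCCCAC from -226 and GTGGGAA from -83, on opposite strands. Both positions are counted from the inner start, and both cores lie within the gene as RefSeq outlines it. Of 32851 mouse promoter windows of the same length, 6.38% held at least 1 such core and 0.256% held 2 or more. The Lfng window held 1 RBPJ core from -109, and E-boxes from -146 and from 2. The Dll1 window shown held an E-box from -132 and the Dll3 window one from -7, and neither held an RBPJ core. A second Dll1 window, of another start, held neither motif. E-boxes of this sequence were present in 16.3% of all windows. Windows were matched for 8 of the 10 members, and Hes1 and Hey1 were not among them. The Jag1 window held an E-box from -82, the Hes6 windows held one from -171 and one from -150, and those of Notch1 and Notch2 held neither motif. A match describes letters in the window and not an occupied site.

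The ligand Dll3, a Delta-type protein known for acting inside the cell that makes it rather than on neighbours, was concentrated in cycling cells. Of its 196 UMIs in all kept cells, 154 (78.6%) were in the cycling progenitor-like class, which held 32.1% of all UMIs, and 21 (10.7%) were in oligodendrocyte precursor-like cells, which held 4.81%. Its level was 62.2 and 99.9 CPM in cycling cells of tdTomato-negative libraries 1 and 2, and 15.7 and 106 CPM in oligodendrocyte precursor-like cells of the same libraries. These ranges overlapped, and cycling cells stood above neuroblast-like cells at 10.7 and 9.99 CPM. The precursor-like value of library 1 rested on 1 UMI and lay within the young neuron-like range of 0 to 18.9 CPM. Astrocyte-like cells held 2 Dll3 UMIs in 278 cells.

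Dll1, the Delta-type ligand that activates receptors on neighbouring cells, was sparser and followed the same classes in part. Of 57 UMIs, 41 (71.9%) were in cycling cells, at 37.9 and 20.6 CPM in tdTomato-negative libraries 1 and 2. Ependymal-like cells held 6 UMIs, 2 in each library, which came to 3.40 CPM in the tdTomato-positive library, with 44.5 and 11.3 CPM in the negative libraries, so cycling and ependymal-like ranges overlapped. Gfap-poor astrocyte-like cells held no Dll1 UMI in 515519 UMIs, where a floor of 3 UMIs would be 5.82 CPM. Intervals cover counting error only.

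Jag1, the Serrate-type ligand, did not follow the Delta-type ligands. It had 40 UMIs, 21 (52.5%) in cycling cells, 9 (22.5%) in Gfap-poor astrocyte-like cells and 6 (15%) in ependymal-like cells. Per UMI sequenced its mean was highest in Gfap-poor astrocyte-like cells among classes with more than 1 library. They had 38.2 CPM in the tdTomato-positive library, from 1 UMI, with 27.9 and 14.4 CPM in the negative libraries. Cycling cells followed at 8.12 and 13.7 CPM, and ependymal-like cells, at 0 to 22.2 CPM, overlapped both. With so few UMIs the order of these classes is uncertain. Gfap-rich astrocyte-like cells held no Jag1 UMI in 140895 UMIs, too few to show a level below that of Gfap-poor cells.

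Notch1, the main receptor measured, was spread over cycling and astrocyte-like cells. It was at 124 and 163 CPM in Gfap-rich astrocyte-like cells and at 97.4 and 103 CPM in cycling cells of tdTomato-negative libraries 1 and 2. Gfap-poor astrocyte-like cells had 153 CPM in the tdTomato-positive library, with 69.9 and 76.6 CPM in the negative libraries, which spans the cycling values. Below them, without overlap with those ranges, came oligodendrocyte precursor-like cells at 62.7 and 37.2 CPM, and neuroblast-like cells lay within that range at 42.6 and 37.7 CPM. Cycling cells, with 32.1% of all UMIs, held 171 of the 332 Notch1 UMIs (51.5%).

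Notch2, the second receptor, had 78 UMIs and leaned to glial classes. Ependymal-like cells held 28 of them (35.9%), Gfap-poor astrocyte-like cells 19 and cycling cells 13. Its level was 166 and 34.3 CPM in Gfap-rich cells, a spread so wide that this class overlapped Gfap-poor cells at 38.2, 41.9 and 35.9 CPM. Neuroblast-like cells held 2 Notch2 UMIs, both in tdTomato-negative library 2.

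The targets were split between classes and differed from each other. Hes1, a repressor that Notch activates in many tissues, was highest in Gfap-poor astrocyte-like cells, at 1718 CPM in the tdTomato-positive library, with 810 and 639 CPM in the negative libraries. Endothelial-like cells of the tdTomato-positive library came next at 349.6 CPM (12 UMIs in 1 library), and ependymal-like cells had 218, 245 and 226 CPM in the 3 libraries. None of these ranges overlapped. Neuroblast-like cells held no Hes1 UMI in tdTomato-negative library 1 and 9.99 CPM in library 2.

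Hes5, the Hes gene most tied to neural stem cells, had the same total as Hes1, 712 UMIs, but another distribution. It stood at 622 and 711 CPM in Gfap-rich cells and at 252 and 725 CPM in Gfap-poor cells of tdTomato-negative libraries 1 and 2, so these groups overlapped. Oligodendrocyte precursor-like cells had 110 and 234 CPM and cycling cells 35.2 and 138 CPM. Ependymal-like cells had 3.40 CPM in the tdTomato-positive library, with 22.2 and 22.6 CPM in the negative libraries, under every Hes1 value of that class. In the Gfap-poor cells of the tdTomato-positive library Hes5 had 1 UMI, or 38.2 CPM with an exact Poisson interval of 0.966 to 213 CPM (95%), beside 45 Hes1 UMIs in the same 14 cells.

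Hey1, a Hes-related target known from vessels and brain, was at 74.8 CPM in tdTomato-positive ependymal-like cells, and at 89.0 and 67.8 CPM in those of the negative libraries. Endothelial-like cells gave 87.4 CPM from 3 UMIs. Gfap-poor astrocyte-like cells, at 76.3, 13.97 and 88.6 CPM, overlapped the ependymal-like range, while cycling cells had 2.71 and 6.10 CPM. Of the 134 Hey1 UMIs, 60 (44.8%) were ependymal-like.

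Lfng, a Fringe glycosyltransferase that adds sugars to Notch receptors and so alters which ligands they answer to, was high with the targets. It reached 725 CPM in Gfap-poor cells of the tdTomato-positive library, with 391 and 438 CPM in the negative libraries, above Gfap-rich cells at 207 and 257 CPM with no overlap. Ependymal-like cells lay between 44.5 and 54.4 CPM, and neuroblast-like cells at 5.33 and 5.55 CPM. The astrocyte-like class as a whole held 68.7% of Lfng UMIs, 59.0% of Hes5 UMIs and 54.8% of Hes1 UMIs, against 12.7% of all UMIs.

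Hes6, a Hes-family member known for opposing Hes1 and favouring neuronal differentiation, was the most abundant member, with 1145 UMIs. Cycling cells held 848 of them (74.1%), at 468 and 515 CPM. Neuroblast-like cells followed at 171 and 141 CPM, and young neuron-like cells averaged 155 ± 14.2 CPM (SD, n = 2), within the neuroblast range. The cycling range lay above both. Astrocyte-like cells held 2.88% of Hes6 UMIs.

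**Figure D1:**
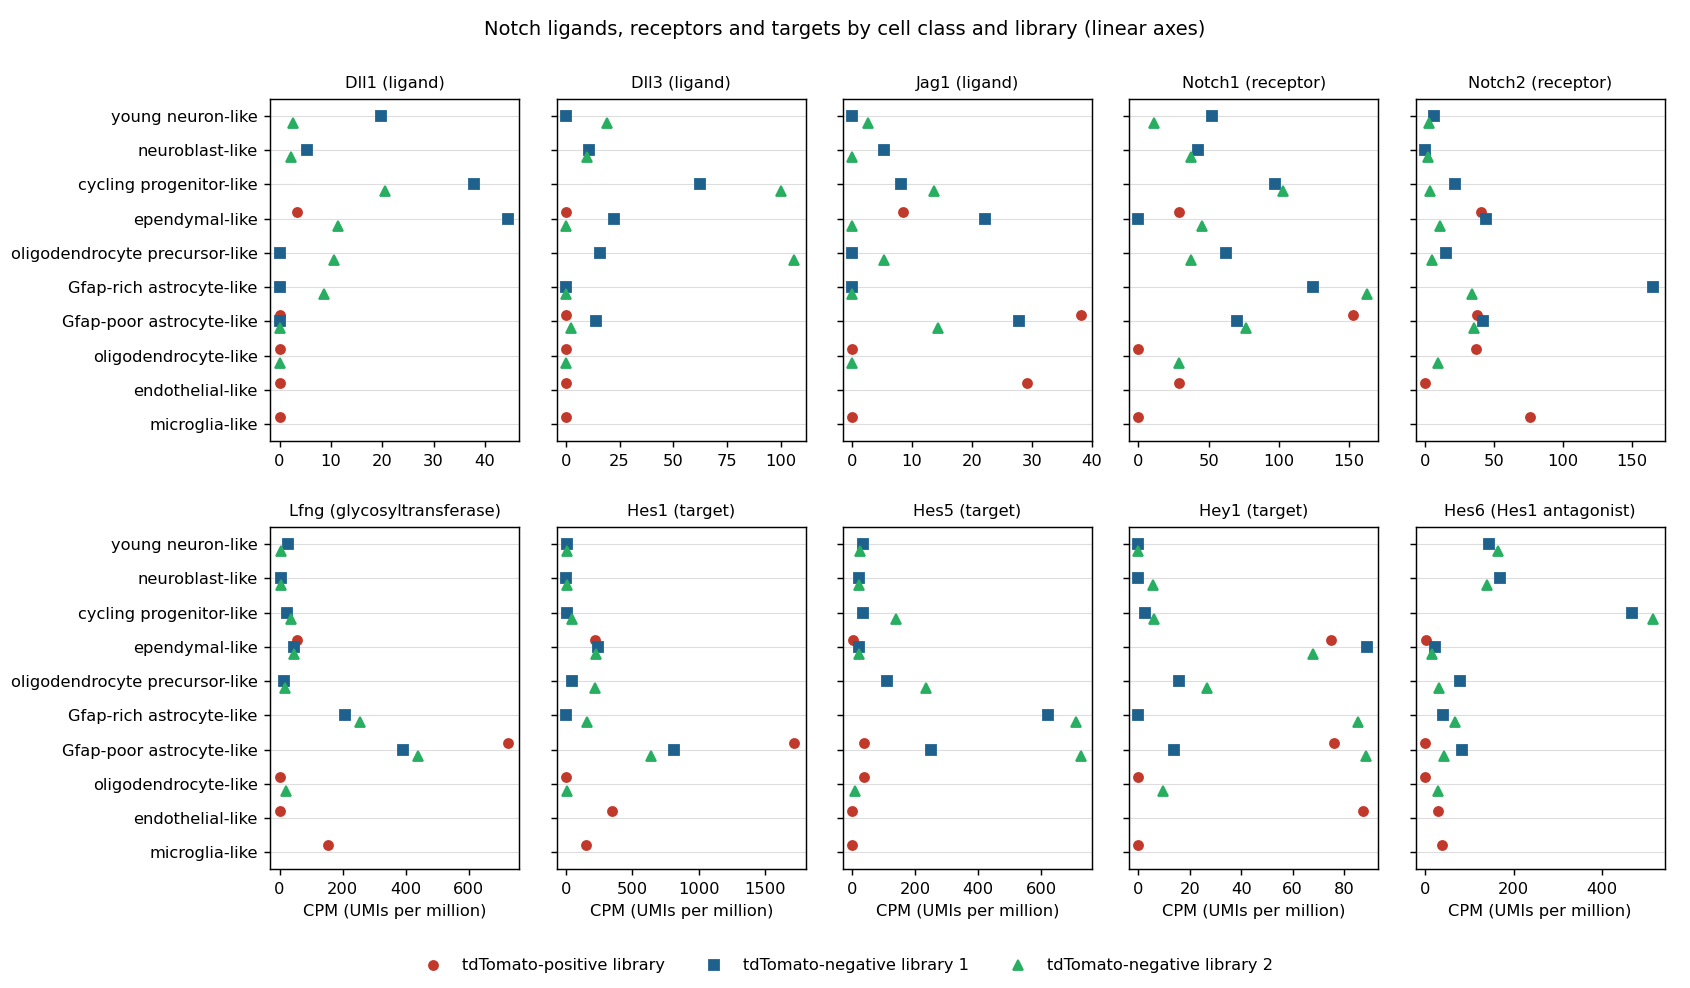
Level of each member in CPM (linear axes) in each cell class, 1 point per library and class with at least 10 cells. Hes6 is highest in cycling progenitor-like cells, Dll3 in cycling progenitor-like and oligodendrocyte precursor-like cells with overlapping ranges, and Hes1 and Lfng in Gfap-poor astrocyte-like cells, where Hes1 lies between 639 and 1718 CPM.

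Summed by role, the 3 ligands reached 108 and 134 CPM in cycling cells of tdTomato-negative libraries 1 and 2, beside 46.0 and 191 CPM of the targets Hes1, Hes5 and Hey1 together. Dll3, known for acting inside its own cell, gave 62.2 and 99.9 CPM of these ligand sums. Dll1 gave 37.9 and 20.6 CPM of them and Jag1 8.12 and 13.7 CPM. Targets exceeded ligands in library 2 but not in library 1. Gfap-poor astrocyte-like cells had 38.2, 41.9 and 16.8 CPM of ligands beside 1832, 1076 and 1453 CPM of targets, in the tdTomato-positive library followed by negative libraries 1 and 2. Most of that ligand sum was Jag1, at 14.4 to 38.2 CPM, and none was Dll1. Gfap-rich cells held 0 and 8.56 CPM of ligands beside 622 and 959 CPM of targets. Oligodendrocyte precursor-like cells of library 2 combined 122 CPM of ligands with 479 CPM of targets, and those of library 1 had 15.7 and 172 CPM. Neuroblast-like cells were low for both, with 21.3 and 12.2 CPM of ligands and 21.3 and 37.7 CPM of targets. The receptors summed to at least 107 CPM in both cycling and Gfap-poor cells of each library.

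**Figure D2:**
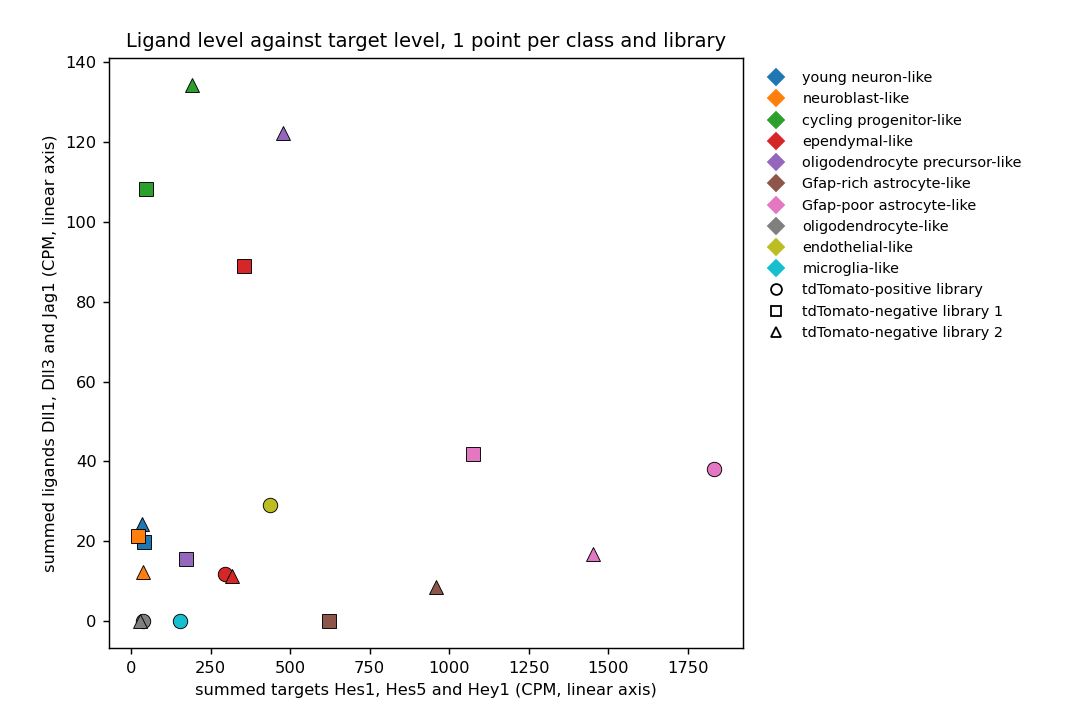
Summed ligands (Dll1, Dll3, Jag1; vertical axis, CPM) against summed targets (Hes1, Hes5, Hey1; horizontal axis, CPM), 1 point per class and library, coloured by class and shaped by library. Cycling progenitor-like points lie high and left, at 108 and 134 CPM of ligands, of which Dll3 gave 62.2 and 99.9 CPM. Also high are oligodendrocyte precursor-like cells of tdTomato-negative library 2 (122 CPM) and ependymal-like cells of tdTomato-negative library 1 (89.0 CPM, 4 UMIs). Gfap-poor astrocyte-like points lie to the right, at 1076 CPM of targets or more.

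Cycling progenitor-like cells, set against astrocyte-like cells, had more Dll3 and Hes6 and less Hes1, Hes5, Hey1, Lfng and Notch2. Of 8 members that passed the filter on low counts, 2 were higher and 5 lower by edgeR's quasi-likelihood test with Benjamini-Hochberg adjustment (BH) at 0.05, while 47.4% of the 3855 genes tested were called (30.0% higher and 17.4% lower). The median log2 fold change was -2.19 over these members and 0.33 over all tested genes. Sums per library and class were compared, with the library as a block.

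Hes6 averaged 492 ± 33.1 CPM in cycling cells (SD, n = 2) and 40.6 ± 37.2 CPM in astrocyte-like cells (n = 3), a log2 fold change of 3.45 ± 0.24 (SE; adjusted p = 5.80e-45, edgeR's quasi-likelihood test). Dll3 had 154 UMIs in cycling cells and 2 in astrocyte-like cells, a log2 ratio of 4.92 with a counting interval of 3.05 to 7.98 (adjusted p = 1.50e-12, same edgeR test). With so few astrocyte-like UMIs, Dll3 passed the filter through other classes, so its p-value adds no support beyond these counts. For neither of these genes did the library values of the classes overlap.

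Hes1 averaged 27.3 ± 27.2 CPM in cycling cells and 849 ± 484 CPM in astrocyte-like cells, a log2 fold change of -3.77 ± 0.21 (adjusted p = 1.93e-66, edgeR). Lfng fell by 3.31 ± 0.28 on the log2 scale, to 24.4 and 36.6 CPM in cycling cells, against 581, 345 and 398 CPM in astrocyte-like cells. Hey1 fell by 3.38 ± 0.54 and Notch2 by 2.10 ± 0.63. Hes5 fell by 2.29 ± 0.18, to 35.2 and 138 CPM in cycling cells, against 30.6 CPM in tdTomato-positive astrocyte-like cells and 345 and 722 CPM in those of the negative libraries. The Hes5 ranges therefore overlapped through the single Hes5 UMI of the tdTomato-positive library, and within each negative library the cycling value was the lower one.

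Notch1 had a log2 fold change of 0.29 ± 0.30 (adjusted p = 0.448, edgeR), with a counting interval of -0.33 to 0.54 for the ratio of summed counts. It stood at 97.4 and 103 CPM in cycling cells, against 122, 83.6 and 95.4 CPM in astrocyte-like cells, and its sign changed under several alternatives. Dll1 and Jag1 were too sparse to be tested: Dll1 had 41 UMIs in cycling and 1 in astrocyte-like cells (log2 ratio 4.02, counting interval 1.46 to 9.35), and Jag1 had 21 and 9 UMIs (-0.12, from -1.31 to 1.19). Without tdTomato-negative library 2, 4 members were called, Hes1, Hes5, Hes6 and Lfng, while Dll3, Hey1, Notch1 and Notch2 were not tested. Median depth was 7969 and 6095 UMIs in cycling cells of the negative libraries, against 2033, 2122 and 2387 in astrocyte-like cells of the 3 libraries. The neuroblast marker list summed to 7011 and 6059 CPM in the cycling class of the negative libraries, beside 11545 and 10953 CPM of the cycling list, and its part in the member values was not tested.

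Of the other 50 pathway genes, 32 were tested in the same comparison, 5 were higher and 6 lower, with a median of -0.23. Mfng, another Fringe enzyme, ran opposite to Lfng, with 72 UMIs in cycling and 3 in astrocyte-like cells (log2 ratio 3.24, counting interval 1.64 to 5.55). Rbpj, the DNA-binding partner of the cut receptor, was higher by 1.74 ± 0.44 and Snw1, a cofactor of that complex, by 1.67 ± 0.25. Nrarp, a target that feeds back to limit Notch, fell by 1.96 ± 0.34, to 29.8 and 35.9 CPM in cycling cells, against 367, 157 and 148 CPM in astrocyte-like cells. Psen2 of the cutting enzyme fell by 2.52 ± 0.79, the corepressor Tle4 by 2.25 ± 0.34, the Delta-related surface protein Dner by 2.17 ± 0.42 and Dtx1, a Deltex ubiquitin ligase, by 1.61 ± 0.48.

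Neuroblast-like cells, set against cycling progenitor-like cells, had less of 6 of the 8 tested members and more of none, while 22.2% of 3855 genes were called (9.88% higher and 12.3% lower) by edgeR's quasi-likelihood test. The median log2 fold change was -1.96 over the members and -0.03 over all tested genes. Dll3 fell by 3.14 ± 0.46 on the log2 scale, to 10.3 ± 0.474 CPM in neuroblast-like cells, against 81.1 ± 26.7 CPM in cycling cells (SD, n = 2 each). Hes6 fell by 1.74 ± 0.17, to 156 ± 20.9 CPM in neuroblast-like cells, against 492 ± 33.1 CPM in cycling cells. Neither range overlapped.

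Lfng fell by 2.51 ± 0.56, Hes5 by 2.34 ± 0.31, Hes1 by 2.12 ± 0.48 and Notch1 by 1.35 ± 0.32, and of these Hes1 had overlapping ranges. Notch2 had a log2 fold change of -1.81 ± 1.02 (adjusted p = 0.217) and Hey1 one of -0.23 ± 0.86 (adjusted p = 0.907, both edgeR). Among the untested ligands, Dll1 had 3 UMIs in neuroblast-like and 41 in cycling cells (log2 ratio -3.15, counting interval -5.48 to -1.50), and Jag1 1 and 21 (-3.77, from -9.14 to -1.13). Without tdTomato-negative library 1 the calls of Notch1, Hes1 and Lfng were lost. Without library 2 no member was called, Dll3 and Notch1 not being tested there. DESeq2 called 2 of the 8 members, Hes6 and Lfng, and lost Dll3, Hes5, Hes1 and Notch1. Of 32 other pathway genes tested, 2 were higher (the coactivator Maml3 by 1.65 ± 0.43 and Dtx3, a Deltex ligase, by 1.012 ± 0.228) and 3 lower (Tle4 at -1.86 ± 0.55, Nrarp at -1.84 ± 0.52 and the corepressor Tle1 at -1.41 ± 0.34).

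Ependymal-like cells, set against astrocyte-like cells, had less Hes5, Lfng, Hes1 and Notch1, and no member was higher. These 4 calls of 8 tested members stand beside 29.9% of 3855 genes called (19.1% higher and 10.8% lower, edgeR's quasi-likelihood test), with a median log2 fold change of -1.42 over the members and 0.15 over all genes. Hes5 fell by 4.64 ± 0.39, to 16.1 ± 10.98 CPM in ependymal-like cells, against 366 ± 346 CPM in astrocyte-like cells (SD, n = 3 each). Hes1 fell by 1.75 ± 0.21, to 229 ± 13.9 CPM, against 849 ± 484 CPM. Ependymal-like cells thus had Hes1 at 218 CPM or more and Hes5 at 22.6 CPM or less, and neither gene's ranges overlapped between the classes.

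Lfng fell by 3.06 ± 0.33 and Notch1 by 1.44 ± 0.49 (adjusted p = 0.0135, edgeR), and the Notch1 call was lost without tdTomato-negative library 1 (-1.31, adjusted p = 0.194). Hey1 averaged 77.2 ± 10.8 CPM in ependymal-like cells and 53.2 ± 39.4 CPM in astrocyte-like cells, a log2 fold change of 0.16 ± 0.46 (adjusted p = 0.852, edgeR) whose sign turned under 4 alternatives. Notch2 and Hes6, at -0.76 ± 0.67 and -1.41 ± 0.68, did not pass, and Dll3 rested on 1 UMI against 2. Among 32 other pathway genes, 4 were higher and 5 lower. Nrarp had 1 UMI in ependymal-like and 106 in astrocyte-like cells (log2 ratio -7.02, counting interval -12.3 to -4.51), Tle1 had 3 and 26 (-3.40, from -5.77 to -1.70) and Dner fell by 3.13 ± 0.61. Furin, which cuts the receptor on its way to the surface, had 20 UMIs in ependymal-like and 2 in astrocyte-like cells (3.03, from 0.99 to 6.17). The corepressor Tle3 was higher by 1.78 ± 0.60, the ligand ubiquitin ligase Mib2 by 1.64 ± 0.64 and Snw1 by 1.52 ± 0.33, while Itch, a ubiquitin ligase that acts on the receptor, fell by 1.43 ± 0.48.

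Oligodendrocyte precursor-like cells, set against astrocyte-like cells, had more Dll3 and less Lfng, Hes1 and Hes5. That is 1 member higher and 3 lower of 8, while 19.6% of 3855 genes were called (11.6% higher and 8.04% lower, edgeR's quasi-likelihood test), with medians of -1.74 over the members and 0.21 over all genes. Dll3 had 21 UMIs in precursor-like and 2 in astrocyte-like cells, a log2 ratio of 4.79 with a counting interval of 2.76 to 7.93 (adjusted p = 3.67e-06, edgeR), and 20 of the 21 came from tdTomato-negative library 2. Here too Dll3 passed the filter through classes other than the astrocyte-like one, so its p-value adds no support beyond these counts. Lfng fell by 4.74 ± 0.50, to 15.7 and 16.0 CPM in precursor-like cells, Hes1 by 1.96 ± 0.25 and Hes5 by 1.81 ± 0.24. Hes5 stood at 110 and 234 CPM in precursor-like cells.

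Notch1 (adjusted p = 0.0562), Notch2 (0.0582) and Hey1 (0.0533) just missed the threshold of 0.05 in edgeR's test, and all 3 passed it without the tdTomato-positive library, which gave 7 calls. DESeq2 called 2 members and lost Dll3, the only higher one (log2 fold change 3.23, adjusted p = 0.186), and Hes5 (adjusted p = 0.138). Without tdTomato-negative library 2 there were 2 calls, Hes5 having an adjusted p of 0.334 (edgeR) and Dll3 not being tested. Of the other pathway genes, 3 of 32 tested were called, and among them Nrarp and Tle4 fell by 3.45 ± 0.61 and 1.70 ± 0.45.

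**Figure D3:**
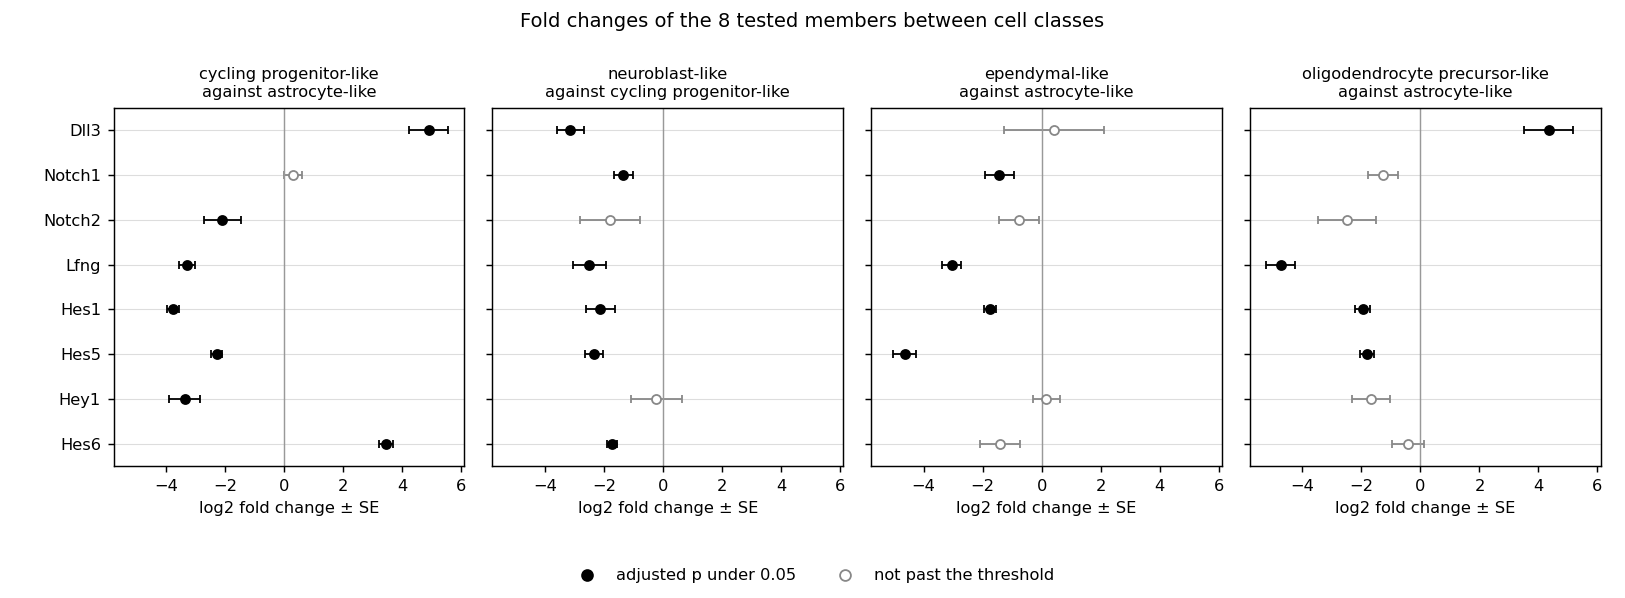
Log2 fold change of the 8 tested members in the 4 class comparisons, with bars of 1 SE derived from the F statistic of edgeR's test, the first-named class over the second. Hes1 and Lfng lie left of 0 in every panel, and Dll3 reaches 4.91 in cycling progenitor-like and 4.34 in oligodendrocyte precursor-like cells.

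Within the astrocyte-like class, cells were split by their markers into a Gfap-rich group (70 cells, led by Gfap, Id3 and Thbs4) and a Gfap-poor group (208 cells, led by Slc7a10, Htra1 and Ntm). Hes1 fell in the Gfap-rich group and Hes5 did not separate the groups. By edgeR's quasi-likelihood test 1 of 8 members was called, Hes1, while 2.49% of 3729 genes were called (1.07% higher and 1.42% lower), with medians of -0.14 over the members and -0.15 over all genes. Hes1 stood at 0 and 163 CPM in Gfap-rich cells of tdTomato-negative libraries 1 and 2, against 1718 CPM in Gfap-poor cells of the tdTomato-positive library, with 810 and 639 CPM in those of the negative libraries. The groups did not overlap, and the log2 fold change was -2.83 ± 0.37 (adjusted p = 2.41e-11, edgeR). The call was lost without tdTomato-negative library 1 (-2.44, adjusted p = 0.101).

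Hes5 averaged 666 ± 63.1 CPM in Gfap-rich cells (SD, n = 2) and 338 ± 352 CPM in Gfap-poor cells (n = 3), a log2 fold change of 0.01 ± 0.42 (adjusted p = 1.00, edgeR). Its low Gfap-poor value was the tdTomato-positive library, at 38.2 CPM from 14 cells. Lfng, at 207 and 257 CPM in Gfap-rich and 725, 391 and 438 CPM in Gfap-poor cells, had a log2 fold change of -1.06 ± 0.34 (adjusted p = 0.0691, edgeR) and passed the threshold under 8 alternatives. Notch1 gave 0.70 ± 0.48 (adjusted p = 0.586) and Notch2 0.46 ± 0.79 (adjusted p = 0.876, both edgeR). Nrarp was the only gene called among 30 other pathway genes tested: it stood at 0 and 34.3 CPM in Gfap-rich cells, against 420, 210 and 180 CPM in Gfap-poor cells, a log2 fold change of -3.03 ± 0.65. Jag1 had no UMI in the Gfap-rich group, among 140895 UMIs, and 9 in the Gfap-poor group, among 515519. The counting interval of its log2 ratio reaches up to 0.89, so these counts do not show a lower level in Gfap-rich cells. The split used the genes that define it, so Gfap and Slc7a10 are not results here, and median depth was 1668 and 2121 UMIs in Gfap-rich cells of the negative libraries, against 2364 and 2520 in their Gfap-poor cells.

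**Figure D4:**
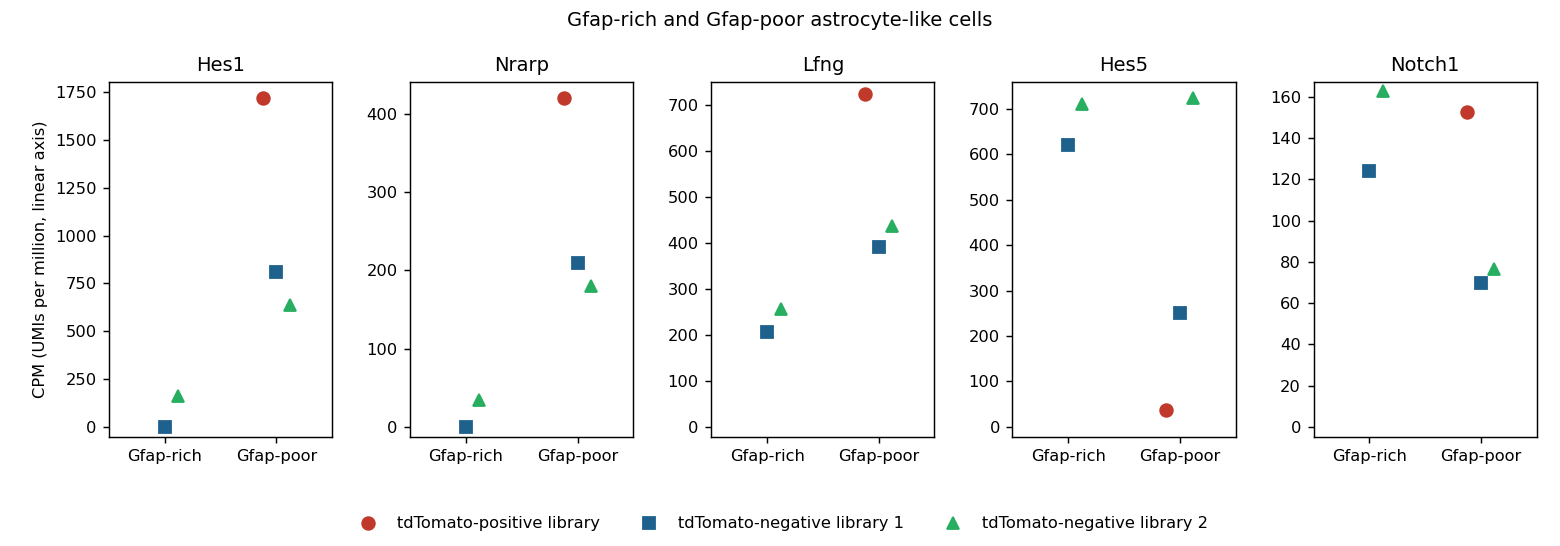
Level in CPM (linear axes from 0) of Hes1, Nrarp, Lfng, Hes5 and Notch1 in Gfap-rich and Gfap-poor astrocyte-like cells, 1 point per library with at least 10 cells. Hes1, Nrarp and Lfng do not overlap between the groups, with Hes1 at 163 CPM or less in Gfap-rich cells, whereas Hes5 and Notch1 do.

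The cycling class was made of an Mcm-rich cluster (148 cells, with the replication genes Mcm3 and Mcm2 among its leading genes) and a mitotic one (93 cells, led by Nusap1 and Ccnb1), and the members differed between them. Dll3 was at 82.8 and 136 CPM in the Mcm-rich cluster of tdTomato-negative libraries 1 and 2, and at 32.8 and 46.0 CPM in the mitotic cluster. Hes6 was at 598 and 674 CPM in the Mcm-rich cluster and at 282 and 274 CPM in the mitotic one. Dll1 was at 59.8 and 24.1 CPM, against 6.57 and 15.3 CPM. None of these 3 genes overlapped between the clusters, and these are descriptions without a test.

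Targets also stood higher in the Mcm-rich cluster, though less evenly between libraries. Hes5 was at 41.4 and 204 CPM there, against 26.3 and 38.3 CPM in the mitotic cluster, and Hes1 was at 13.8 and 71.0 CPM, against 0 and 9.58 CPM. Library 2 was the higher one for both targets in both clusters. Dll1, Dll3 and Hes5 were all present in the Mcm-rich cluster.

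Oligodendrocyte precursor-like cells also fell into 2 clusters, one led by Pdgfra and Olig1 (51 cells) and one led by Bmp4 and Enpp6 (17 cells). In the Pdgfra-led cluster Dll3 had 29.2 and 165 CPM in tdTomato-negative libraries 1 and 2, Hes5 117 and 373 CPM and Hes1 87.7 and 347 CPM. In the Bmp4-led cluster Dll3 had 1 UMI, Hes1 had 1 UMI, Hes5 had 4 UMIs and Notch1 had none. The 11 markers of mature oligodendrocytes summed to 42044 and 37339 CPM in the Bmp4-led cluster, against 1521 and 676 CPM in the Pdgfra-led one. The Bmp4-led cluster had 5 and 12 cells in these libraries, and no test was made.

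**Figure D5:**
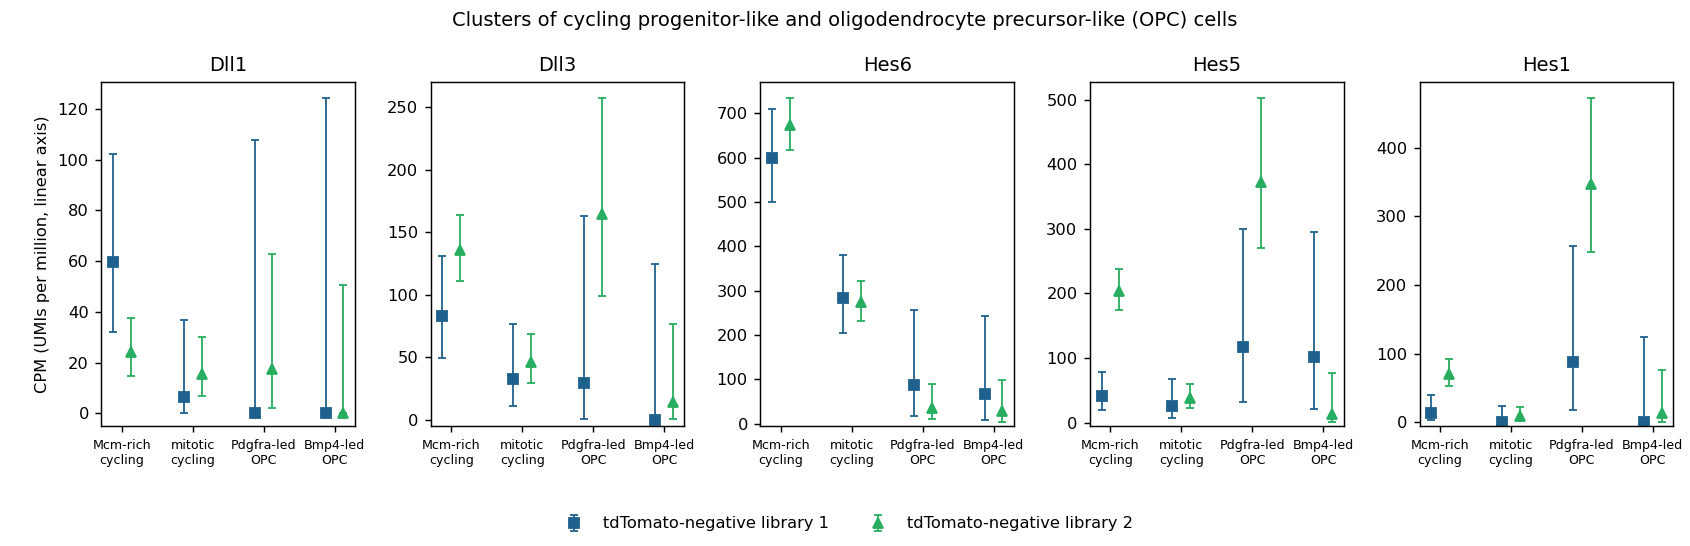
Level in CPM (linear axes) of Dll1, Dll3, Hes6, Hes5 and Hes1 in the clusters of cycling progenitor-like and oligodendrocyte precursor-like (OPC) cells, 1 point per tdTomato-negative library with exact 95% Poisson intervals. Dll3 and Hes6 are higher in the Mcm-rich than in the mitotic cluster in both libraries, and Hes5 reaches 373 CPM in the Pdgfra-led cluster.

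Per cell, a Dll3 UMI was found in 32.1% and 44.2% of Mcm-rich cells of tdTomato-negative libraries 1 and 2 and a Hes6 UMI in 82.1% and 85.0%. Of the ependymal-like cells of the same libraries, which should lack both, 1 of 12 and 0 of 46 had a Dll3 UMI, and 1 of 12 and 3 of 46 (6.52%) had a Hes6 UMI. Their median depth was 4069 and 4256 UMIs, against 7437 and 6031 UMIs in the Mcm-rich cells. With every cell thinned to 1000 UMIs, Dll3 was still found in 7.14% and 8.33% of Mcm-rich cells and in 0 of 11 and 0 of 46 ependymal-like cells. Among 46 cells a floor of 3 cells would be a share of 6.52%. A Hes5 UMI was found in 38.6% and 60.8% of astrocyte-like cells of these libraries, beside 1 of 12 and 4 of 46 (8.70%) ependymal-like cells. After thinning the shares were 30.8% and 40.5% of astrocyte-like cells, beside 0 of 11 and 1 of 46 (2.17%) ependymal-like cells.

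Whether a ligand and a target sat in the same cell could be looked at in cycling cells of tdTomato-negative library 2. Of 24 cells with a Dll1 UMI, 6 (25%, exact binomial interval 9.77 to 46.7%) also had a Hes5 UMI, and of 173 cells without one, 54 (31.2%, 24.4 to 38.7%) did. Within the Mcm-rich cluster the counts were 4 of 17 (23.5%) and 43 of 103 (41.7%, 32.1 to 51.9%). The intervals overlapped in both sets, but they take cells of 1 library as independent, and a difference was not tested. In the cycling class, unthinned Dll1 cells were deeper, with a median of 7518 UMIs against 5999. Thinned to 1000 UMIs, 1 of 3 Dll1 cells and 19 of 194 others (9.79%) had Hes5, which leaves too few cells to read. Thinned to 2000 UMIs, the counts were 1 of 8 and 28 of 185 (15.1%). In library 1, 1 of 8 Dll1 cells and 7 of 36 others had Hes5. The same counts for other genes were added after the Dll1 values had been seen. For Dll3 they were 22 of 70 cells with a UMI (31.4%) and 38 of 127 others (29.9%) in cycling cells of library 2, and 17 of 53 (32.1%) and 30 of 67 (44.8%) in its Mcm-rich cluster. Thinned to 1000 UMIs, 0 of 12 Dll3 cells and 20 of 185 others (10.8%) of the cycling class had Hes5. In oligodendrocyte precursor-like cells of library 2 the counts were 9 of 16 Dll3 cells (29.9 to 80.2%) and 8 of 34 others (23.5%, 10.7 to 41.2%). These cells mix 38 of the Pdgfra-led cluster with 12 of the Bmp4-led one, which held few Dll3 and Hes5 UMIs. The part of this mixture in the shares was not tested. The Dll3 shares therefore differed in direction between these sets, and all of their intervals overlapped. Such overlap is not a test and does not show equal shares. For Hes6, 51 of 145 cells with a UMI (35.2%, 27.4 to 43.5%) and 9 of 52 others (17.3%, 8.23 to 30.3%) of the cycling class had Hes5, and the Hes6 cells were deeper, with a median of 6626 UMIs against 4821. Thinned to 1000 UMIs, the shares were 8 of 62 (12.9%, 5.74 to 23.9%) and 12 of 135 (8.89%, 4.68 to 15.01%), and in the Mcm-rich cluster 6 of 46 (13.04%) and 11 of 74 (14.9%). Thinned to 2000 UMIs, they were 18 of 86 (20.9%) and 11 of 107 (10.3%), and in the Mcm-rich cluster 13 of 65 (20%) and 9 of 51 (17.6%).

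Among the genes whose level over the 18 sums of class and library was most like Dll1 were Arhgap11a (Pearson r = 0.8203) and Hmgb1 (0.775), on log2 of CPM plus 10 and among 3847 genes. For Hes5 they included Fam181b (0.804) and Car8 (0.784). For Jag1 the first 3 were Zic5 (0.864), Gbe1 (0.826) and Slc39a9 (0.785). These sums share 3 libraries and differ in depth, so the coefficients are descriptions, and those of Dll1 and Jag1 rest on 57 and 40 UMIs.

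Between the sorted populations, the tdTomato-positive library had more Notch2, Hey1 and Hes1 and less Hes6, Hes5, Dll3 and Dll1 than the tdTomato-negative libraries when all cells were summed. Of 9 tested members 3 were higher and 4 lower, while 41.8% of 10944 genes were called (22.9% higher and 19.0% lower, edgeR's quasi-likelihood test), with medians of -0.87 over the members and -0.07 over all genes. Hey1 was at 68.0 CPM in the tdTomato-positive library, against 7.56 and 21.8 CPM in the negative libraries (log2 fold change 2.00 ± 0.38). Hes1 was at 271 CPM, against 82.1 and 123 CPM (1.403 ± 0.2996), and Notch2 at 38.9 CPM, against 20.5 and 8.64 CPM (1.69 ± 0.46, adjusted p = 0.00112, edgeR). None of the 3 overlapped between the gates. Without tdTomato-negative library 2, which leaves 1 library a gate and no test, the log2 fold change was 3.29 for Hey1, 1.87 for Hes1 and 1.06 for Notch2.

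Hes6 was at 5.55 CPM in the tdTomato-positive library, against 259 and 251 CPM in the negative libraries (-5.45 ± 0.55), and Hes5 at 5.55 CPM, against 68.0 and 180 CPM (-4.51 ± 0.55). Dll3 had no UMI in the tdTomato-positive library and 196 in the negative ones, a log2 ratio whose counting interval reaches up to -3.07. Dll1 had 2 UMIs in the tdTomato-positive library and 55 in the negative ones (log2 ratio -2.13, counting interval -5.22 to -0.21; adjusted p = 0.0468, edgeR), a call that was lost with RLE scaling and with DESeq2. DESeq2 also lost the Notch2 call. Notch1 (-0.87 ± 0.38, adjusted p = 0.0547) and Lfng (0.20 ± 0.34, adjusted p = 0.668, both edgeR) did not pass, and Jag1 was not tested. Notch1 passed with the stricter cell filter of at least 500 genes and at most 10% mitochondrial UMIs (-1.40, adjusted p = 0.00476, edgeR), beside the higher mitochondrial share of the tdTomato-positive library. This fit has 1 residual degree of freedom, and the lone tdTomato-positive library is assumed to vary like the others.

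Class shares moved with this result: ependymal-like cells were 70.2% of the tdTomato-positive library, against 4.69% and 4.10% of the negative libraries, and cycling cells were absent from it, against 17.2% and 17.6%. In such sums, fewer cells of a type and less RNA per cell cannot be told apart. Within ependymal-like cells alone 2 members had counts enough to be tested, and 0 were called, beside 0.291% of 4118 genes (0.17% higher and 0.121% lower, edgeR; 141 genes and neither member had an unadjusted p under 0.05, and DESeq2 also called neither). Hes1 was at 218 CPM in tdTomato-positive ependymal-like cells, against 245 and 226 CPM in those of the negative libraries (-0.01 ± 0.34), and Hey1 at 74.8 CPM, against 89.0 and 67.8 CPM (0.12 ± 0.51). Neither difference exceeded its error. Of the other 38 pathway genes tested over all cells, 8 were higher and 5 lower. They included the Deltex ligases Dtx4 (3.22 ± 0.85) and Dtx2 (1.60 ± 0.59), the target Hey2 (2.37 ± 0.88) and the corepressor Tle3 (1.69 ± 0.35). On the lower side were Tle1 (-3.00 ± 0.56), Mfng (-2.19 ± 0.59) and Pofut1 (-1.79 ± 0.63), which adds the fucose that Fringe enzymes extend. Tle2 had 2 UMIs in the tdTomato-positive library and 96 in the negative ones (log2 ratio -2.94, counting interval -6.00 to -1.05). Within ependymal-like cells, 12 other pathway genes were tested and none was called by edgeR.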

How the data were processed

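Droplet libraries (10x Chromium Single Cell 3′, v2 chemistry) of sorted SVZ cells were analysed, 1 of tdTomato-positive and 2 of tdTomato-negative cells. The deposited matrices hold UMI counts, whole numbers that were not normalized, and no annotation of cells by the authors was used. The submitters' processing notes name STAR, Cell Ranger, Seurat 1.4.0.15, mm10 and GRCm38.p5. The sources used here do not state their order, the calling of cells or any use of strand, so reads of overlapping antisense genes cannot be told apart. The matrices held 788344, 929997 and 3593633 UMIs in 314, 259 and 1127 barcodes.

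Of 1700 barcodes, 1629 had at least 300 genes and no more than 25% mitochondrial UMIs and were kept. Cells were scaled to 10000 UMIs, log-transformed with a pseudocount of 1 and clustered with scanpy 1.11.5 (1000 variable genes, 20 principal components, 15 neighbours, Leiden resolution 1.0). Clustering used 14076 genes with an even last Ensembl digit plus 144 markers, without the members or the 50 other pathway genes, and class tests used odd-digit genes plus the members and those 50. Clusters were named from the marker lists. Doublets were excluded at the sort per the labels' protocols, and Scrublet called 9, 2 and 3 cells, which were kept.

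Counts were summed per library and class of at least 10 cells and divided by the summed UMIs (CPM). A UMI marks a transcript end, so levels were not divided by length. edgeR 4.0.16 (R 4.3.3; TMM scaling, filterByExpr, quasi-likelihood test, Benjamini-Hochberg at 0.05 over all genes tested) was fitted on 18 sums with class and library terms, on 20 sums for the Gfap split and on 3 library sums for the gate. The SE of a log2 fold change was derived from that test, as its absolute value divided by the square root of the F statistic. Counting intervals are exact at 95%, and the floor is 3 UMIs. The script was tested on simulated data. Alternatives were RLE scaling, DESeq2 1.42.0, no filter on low counts, at least 500 genes with at most 10% mitochondrial UMIs, Leiden resolutions 0.5 and 2.0, odd-digit clustering genes, Scrublet calls removed, no library block, sums of at least 20 cells and each library left out.

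All 10 members were named, and of the other pathway genes the called ones with the largest absolute log2 fold change, at most 8 a comparison. Some genes that these rules pick are not reported here. The members, lists and tests were chosen with earlier results of these data known. Libraries are linked to no animal in the labels, and the library block pairs classes of 1 library by construction.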

Additional observations from a re-analysis of the deposited data

Results flagged for a closer look

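The 8 mural-like cells of the tdTomato-positive library were in no class comparison, only in the sums of all cells between gates. Signal in these cells (7911 UMIs in all) stood above the all-cell values of both tdTomato-negative libraries. Notch1 had 506 CPM there (4 UMIs in 4 cells; exact Poisson interval 138 to 1295 CPM), against 69.1 and 67.5 CPM over all cells of tdTomato-negative libraries 1 and 2. Hes1 had 632 CPM (5 UMIs in 2 cells, interval 205 to 1475 CPM), against 82.1 and 123 CPM. Over all cells of the tdTomato-positive library, from which these cells came, Hes1 was at 271 CPM, within its mural-like interval. Notch1 was at 36.1 CPM there, below its interval. In Gfap-poor astrocyte-like cells Hes1 stood at 639 CPM or more in every library. The target Heyl had 506 CPM (4 UMIs in 3 cells), against 3.24 and 3.07 CPM, and Dtx3 had 885 CPM (7 UMIs in 4 cells; 356 to 1823 CPM), against 150 and 114 CPM. The astrocyte marker list summed to 16180 CPM and the mural list to 29958 CPM in this class of cells, with Gfap, Aqp4 and Slc7a10 at 0, and the part of other cells' RNA was not tested. All 4 genes were picked out for standing above the negative libraries, so no test is given.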

How the results depend on the processing

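Over 573 combinations of a member's comparison with an alternative, 482 kept direction and side of the threshold, 31 passed it newly, 23 lost it, 31 changed sign and 6 moved in value by more than the spread, all 6 between gates without tdTomato-negative library 2 (Hey1 3.29, Hes1 1.87, Notch2 1.06, Lfng 0.64, Hes5 -3.44 and Dll3 at no count in the tdTomato-positive library). The calls that were lost are named in the report, except these: at Leiden resolution 0.5 the Notch1 and Hes1 calls in neuroblast-like cells were lost, and with the stricter cell filter or sums of at least 20 cells the Notch1 call in ependymal-like cells was lost. In neuroblast-like against cycling cells DESeq2 called 2 members, against 6. In precursor-like against astrocyte-like cells RLE scaling, no filter, the stricter cell filter and odd-digit clustering each called 7 members and DESeq2 called 2, against 4. In Gfap-rich against Gfap-poor cells RLE scaling, the stricter cell filter, resolutions 0.5 and 2.0, Scrublet removal, odd-digit clustering and sums of at least 20 cells each called 2 (Hes1 and Lfng), against 1. The causes were not tested. Leaving out 1 library gave 4 to 7 members for cycling, 0 to 6 for neuroblast-like, 3 to 5 for ependymal-like, 2 to 7 for precursor-like and 0 to 2 for Gfap-rich cells, the low ends having fewer sums. Without tdTomato-negative library 2, Notch1, Notch2, Dll3 and Hey1 were not tested between classes.

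None of the sign changes passed the threshold. For Notch1 in cycling against astrocyte-like cells they were -0.23 (RLE), -0.28 (DESeq2), -0.049 (resolution 0.5), -0.031 (Scrublet), -0.10 (odd-digit) and -0.069 (sums of at least 20 cells), and -0.026 to -0.020 with a library left out. For Dll3 in ependymal-like cells they were -1.04 (DESeq2), -0.98 (no library block) and -3.70 (sums of at least 20 cells), and -2.09 to 0.21 with a library left out. For Hey1 there they were -0.13 (stricter filter) and -0.52 (sums of at least 20 cells), and -0.20 to -0.15 with a library left out. For Hes5 in Gfap-rich cells they were -0.085 (RLE), -0.051 (no filter), -0.29 (stricter filter), -0.062 (resolution 0.5), -0.051 (Scrublet), -0.080 (odd-digit) and -0.26 (sums of at least 20 cells), and -0.18 to 0.98 with a library left out. Leaving out a library there gave -0.12 to 0.29 for Notch2 and -1.25 to 0.41 for Hes6, and in precursor-like cells -0.93 to 0.042 for Hes6. Between gates it gave -0.048 to 0.64 for Lfng, and within ependymal-like cells -0.10 to 0.16 for Hey1, where Hes1 gave 0.082 with no filter.

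Over all genes, counts moved by more than 1.5 times with DESeq2 for the gate (1908, against 4577), for cycling (1192, against 1827), neuroblast-like (351, against 855) and precursor-like cells (426, against 756), and to 0 from 12 genes within ependymal-like cells. Neuroblast-like counts were 338 at resolution 0.5, 555 without Scrublet calls and 540 without the block, and Gfap-rich counts were 165 with RLE, 169 with odd-digit clustering and 141 with sums of at least 20 cells, against 93.

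No paired analysis was possible because the gates share fewer than 2 replicate numbers. Between classes, where the library is the block, the fit without it called 7, 6, 5, 4 and 1 members for cycling, neuroblast-like, ependymal-like, precursor-like and Gfap-rich cells, against 7, 6, 4, 4 and 1 with the block, the added call being Hes6 in ependymal-like cells. Depth limits Dll1, Jag1 and Notch2 most, with 57, 40 and 78 UMIs in all cells.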
